A study of Mus musculus with 2 samples.

Results

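Mast cells of the mouse aorta were followed here, as 74 cells among 19897 filtered cells and 32077 deposited cells. A cell was selected as a mast cell when it had at least 500 detected genes, at most 10% mitochondrial UMIs, at least 3 UMIs of Cpa3, and UMIs of at least 3 of the 6 genes Cpa3, Mcpt4, Cma1, Kit, Tpsb2 and Fcer1a. UMIs are unique molecular identifiers, each counting 1 captured RNA molecule. The 6 genes chose the cells, so their levels below are a description and support nothing. The selection gave 36 mast cells of 11168 filtered cells in one library and 38 of 8729 in the other.

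The study profiled whole aorta, dissected from the arch to the pelvic bifurcation, by 10x Genomics 3′ v3 single-cell RNA sequencing, and the series title places its question in angiogenesis. Both groups were male mice on the C57BL6 background with the genotype Cept1fl/fl. One also carried VE-cadherin-Cre-ERT2, a Cre recombinase driven in endothelial cells and activated by tamoxifen, which turns on Cept1 overexpression (Cept1fl/fl Cre+, the Cept1 library). The other lacked Cre (Cept1fl/fl Cre-, the control library), and each group had 1 library. Per the labels' protocols, littermates of at least 8 weeks had 1 mg of tamoxifen injected on 5 days in a row and then rested for 5 days. Their age label instead reads 6 to 8 weeks. Tissue came from 3 mice per condition. Neither the pooling of mice nor the gate of the sort the protocol mentions is stated in those labels. Cept1 encodes a choline and ethanolamine phosphotransferase that completes phosphatidylcholine and phosphatidylethanolamine synthesis. Cre is driven in endothelium, so mast cells are not the targeted cell type.

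Mast cells are tissue-resident leukocytes that mature under the control of the receptor tyrosine kinase Kit and fill their cytoplasm with granules of proteases, heparin and amines. Antigen bound to IgE crosslinks the high-affinity receptor FcεRI, and peptides and drugs act through Mas-related G protein-coupled receptors, and both routes release the granules. In connective tissue, including the adventitia of arteries, their granules hold chymases, tryptases and carboxypeptidase A3, whereas mucosal mast cells of the mouse carry other chymases. The transcription factors Gata2 and Mitf are known regulators of their protease and receptor genes.

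The promoters of 3 granule protease genes and of the α and β chains of FcεRI are printed because they drive the transcripts that define these cells. Each run is the 250 bases before the annotated start, 5′ to 3′ on the gene's own strand, from RefSeq on GRCm38.p6. Capitals mark the GATA letters searched on both strands, which were AGATAA or AGATAG and TGATAA or TGATAG. All 5 genes lie on the minus strand: Cpa3 at chr3:20242182-20242431, Mcpt4 at chr14:56062311-56062560, Cma1 at chr14:55944676-55944925, Ms4a2 at chr19:11623720-11623969 and Fcer1a at chr1:173227230-173227479.
Cpa3: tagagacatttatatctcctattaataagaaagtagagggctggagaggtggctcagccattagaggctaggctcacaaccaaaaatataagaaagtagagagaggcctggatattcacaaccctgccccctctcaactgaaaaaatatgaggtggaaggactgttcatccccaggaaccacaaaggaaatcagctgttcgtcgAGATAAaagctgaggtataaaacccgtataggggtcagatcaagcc
Mcpt4: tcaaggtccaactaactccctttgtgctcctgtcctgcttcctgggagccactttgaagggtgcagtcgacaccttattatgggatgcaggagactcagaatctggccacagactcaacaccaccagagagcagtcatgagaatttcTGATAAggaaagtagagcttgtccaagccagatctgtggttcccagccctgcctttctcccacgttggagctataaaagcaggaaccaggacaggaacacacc
Cma1: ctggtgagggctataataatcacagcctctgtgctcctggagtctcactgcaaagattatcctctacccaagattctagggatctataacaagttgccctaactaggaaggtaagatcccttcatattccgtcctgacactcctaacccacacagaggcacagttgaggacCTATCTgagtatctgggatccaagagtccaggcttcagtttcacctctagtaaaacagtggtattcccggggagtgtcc
Ms4a2: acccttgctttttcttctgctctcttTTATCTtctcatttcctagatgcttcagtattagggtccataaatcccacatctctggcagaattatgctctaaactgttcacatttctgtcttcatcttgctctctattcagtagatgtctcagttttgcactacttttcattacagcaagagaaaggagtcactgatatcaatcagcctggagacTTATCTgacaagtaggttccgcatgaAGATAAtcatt
Fcer1a: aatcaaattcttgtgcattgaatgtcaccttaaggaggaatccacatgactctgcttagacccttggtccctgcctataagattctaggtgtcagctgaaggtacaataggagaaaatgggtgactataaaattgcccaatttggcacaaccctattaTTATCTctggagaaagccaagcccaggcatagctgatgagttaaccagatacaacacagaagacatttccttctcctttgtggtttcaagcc
The letters began 46 bases before the start in Cpa3, 103 in Mcpt4, 79 in Cma1 and 92 in Fcer1a. Ms4a2 held 3 such runs, beginning 224, 37 and 11 bases before the start. Over windows of 300 bases (250 before to 50 after the start), 14 of the 23 genes with a window among the 25 most mast-restricted ones below held them (60.9%), against 8930 of 27025 genes (33.0%). E-box letters (CACGTG or CATGTG, both strands), the kind Mitf is known to bind, were in 2 of the 23 (8.70%) and in 22.7% of all genes. A run of letters is a description of the window and not a binding site.

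The selected cells carried all 6 genes in 31 of 36 cells of the Cept1 library and 29 of 38 of the control library, 5 genes in 5 and 7 cells, and 4 genes in 0 and 2 cells. Cpa3, the granule carboxypeptidase, had 18 to 413 UMIs per cell (median 81.5) in the Cept1 library and 3 to 266 (median 61) in the control library. Mcpt4, a chymase, had 23 to 600 UMIs per cell (median 150) and 1 to 533 (median 120). The ranges overlapped almost entirely, except at the low end. In the control library 8 cells had under 10 Cpa3 UMIs and in the Cept1 library 0 did.

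Together the 6 genes gave 2.24 to 15.6% of a cell's UMIs (median 9.55%) in the Cept1 library and 0.136 to 18.2% (median 8.22%) in the control library. Just outside the selection stood 3 and 4 filtered cells with at least 3 of the genes but only 1 or 2 Cpa3 UMIs, 0 and 3 such cells with no Cpa3 UMI, and 3 and 1 cells with at least 3 Cpa3 UMIs but fewer than 3 genes. In those cells the 6 genes gave 0.0434 to 0.186% and 0.0119 to 0.384% of UMIs. One control mast cell therefore lay within the range of the cells left out.

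Depth was lower than in other cells. Mast cells had a median of 4499 UMIs (964 to 20608) and 2062 genes in the Cept1 library and 3720 UMIs (798 to 15983) and 1517 genes in the control library. Other leukocytes, taken as filtered cells with at least 1 UMI of the pan-leukocyte gene Ptprc, numbered 2869 and 2789, with medians of 8026 and 7675 UMIs. Ptprc itself was found in 27 and 24 mast cells and not in 9 and 14. The whole libraries held 95735360 and 88220524 UMIs over 17728 and 14349 cells, and the mast cells 221175 and 186967.

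**Figure D1:**
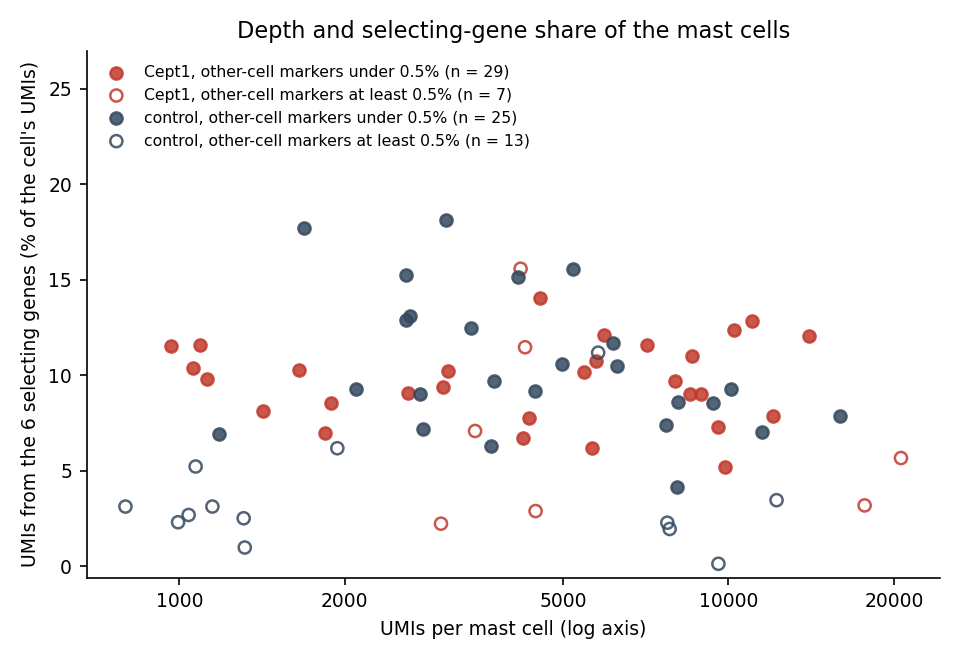
UMIs per mast cell (log axis) against the percentage of its UMIs from the 6 selecting genes, 1 point per cell, red for the Cept1 and dark blue for the control library; open points have at least 0.5% of UMIs from markers of other cells. The open control points lie mostly below 6% and include the shallow group near 1000 UMIs.

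Some selected cells also held transcripts of other cells. Summed over 10 marker lists of other cell types, markers reached at least 0.5% of UMIs in 7 mast cells of the Cept1 library and 13 of the control library. Fibroblast markers were the most frequent, at 0 to 283 UMIs per cell (median 1, sum 612, all 6 genes found) in the Cept1 library and 0 to 246 (median 1, sum 719, all 6 found) in the control library. Erythroid markers summed to 244 and 2968 UMIs, of which 1628 and 1303 lay in 2 control cells. Macrophage markers summed to 107 and 160 UMIs and smooth muscle markers to 24 and 157, of which 125 lay in 1 control cell. The 8 control cells with under 10 Cpa3 UMIs each had 9 to 41 fibroblast UMIs. Among eosinophil markers Siglecf, Prg2, Epx and Ccr3 were at 0 in both libraries, and Il5ra had 9 and 3 UMIs in 7 and 2 mast cells. Of T cell markers all 5 were at 0 in the Cept1 library. In the control library T cell markers had 15 UMIs, all in the cell with 125 smooth muscle UMIs. Values are given below for all mast cells and, where it matters, for the 29 and 25 with under 0.5%, a limit chosen after the data were seen.

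Doublets were kept. Scrublet marked 4.38% and 1.98% of filtered cells at a common score threshold and none of the 74 mast cells, those with haemoglobin or collagen UMIs included. The libraries shared 74 barcode sequences, none of them a mast cell's.

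Mast cells made up 0.322% of filtered cells in the Cept1 library (exact 95% Clopper-Pearson interval 0.226 to 0.446%) and 0.435% in the control library (0.308 to 0.597%). The log2 ratio of the shares was -0.43 (-1.13 to 0.26), so a difference was not detectable at this depth. Of cells with Ptprc UMIs plus mast cells they were 1.24% and 1.34%. Intervals here and below cover counting error only, and with 1 library per group no difference between groups was tested. The unstated sort gate and the digestion also enter the shares. Without the mitochondrial and gene filter 49 and 86 cells passed the selection, 0.276% and 0.599% of all cells, and the log2 ratio was -1.12 (-1.65 to -0.59). The 13 and 48 cells that the main filter removed all exceeded 10% mitochondrial UMIs, and 3 and 23 of them also had too few genes. Their medians were 1930 and 869 UMIs in all, and 22 and 5 UMIs of Cpa3. Among the cells with under 0.5% other-cell markers the shares were 0.260% and 0.286%.

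Against other leukocytes, mast cells stood apart by granule proteases, Mas-related receptors, the IgE receptor chains Fcer1a and Ms4a2, and amine handling genes. Of 1378 genes with at least 20 UMIs in the mast cells of each library, 156 (11.3%) were at least 4-fold higher than in other leukocytes in both libraries and 3 (0.218%) at least 4-fold lower. Levels are counts per 1000000 UMIs of the summed cells (CPM). The other leukocytes, chosen by 1 Ptprc UMI, also held stromal transcripts. Their fibroblast markers summed to 3580 and 4296 CPM, smooth muscle markers to 900 and 1097, and endothelial markers to 341 and 353. Whether these came from stromal cells in the set or from free RNA was not tested, and they enter every ratio against other leukocytes. The minimum of 20 UMIs in mast cells favours genes that are high in them, so the 2 percentages are not an even comparison. Since the same cells were selected by Cpa3 and its companions, the contrast is descriptive. The 10 mast cell markers outside the selection (Tpsab1, Hdc, Ms4a2, Slc18a2, Gata2, Mrgprb1, Mrgprb2, Il1rl1, Rab27b and Cyp11a1) were all among the higher genes, with log2 ratios of 5.31 to 14.39 in the Cept1 library and 5.91 to 13.62 in the control library. These are ratios of summed UMIs, to which deep cells give most. In the 8 control cells with under 10 Cpa3 UMIs, Mrgprb1, Gata2 and Ms4a2 were each found in 2 cells, Tpsab1, Slc18a2 and Mrgprb2 each in 1, and Hdc in 5. Of mast-restricted genes beyond those 10 markers, Tph1 was found in 7 of the 8 cells with 8 UMIs in all. Hs6st2 was found in 4 with 7 UMIs, and Slc6a4 in 2 with 3. For those 8 cells the label rests on the selecting genes and on few UMIs of other mast cell genes. Their median was 1110 UMIs, but the deepest had 9586 UMIs and 3688 genes. That cell held only 13 UMIs of the selecting genes (0.136%), 0 of Kit and Mrgprb1, and 125 of smooth muscle markers, so its label is doubtful.

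**Figure D2:**
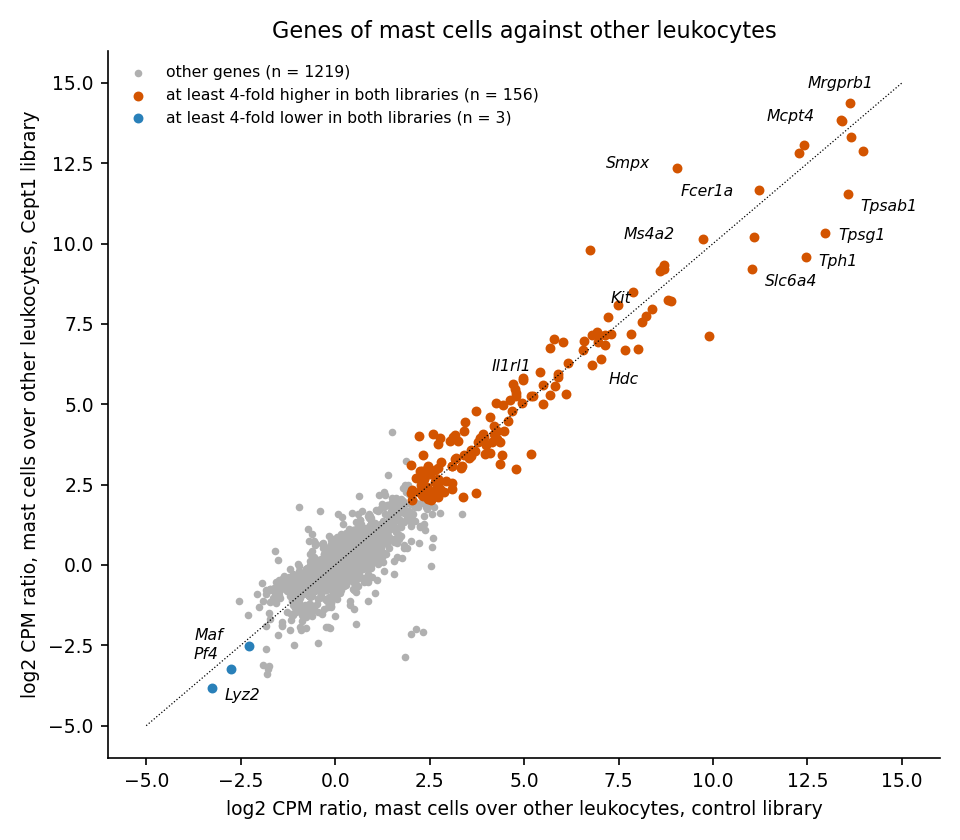
Log2 CPM ratio of mast cells over other leukocytes in the control library (x axis) and the Cept1 library (y axis), 1 point per gene with at least 20 UMIs in the mast cells of each library; the dotted line marks equal ratios. Orange points (156) are at least 4-fold higher and blue points (3) at least 4-fold lower in both libraries, and labelled genes are named in the text.

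Mcpt4 had 6496 and 5431 UMIs in the mast cells of the Cept1 and control libraries, against 53 and 72 in all other leukocytes, log2 ratios of 13.83 and 13.41. Tpsb2, a tryptase, had 3229 and 2302 UMIs against 26 and 31 (13.85 and 13.38). For Cma1, a second chymase, the ratios were 12.83 and 12.28, and for Cpa3 13.30 and 13.66. Outside mast cells these transcripts appeared at a like low share: Cpa3 UMIs were in 1.39% and 1.08% of other leukocytes and in 0.787% and 0.966% of cells without Ptprc UMIs.

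Further tryptases had few UMIs. Tpsab1 had 50 and 85 UMIs, in 17 and 23 mast cells, against 2 and 1 in other leukocytes, log2 ratios of 11.53 (9.61 to 14.62) and 13.58 (11.06 to 18.90). Tpsg1, a membrane-anchored tryptase, had 43 and 56 UMIs in 15 and 20 mast cells. The tryptase genes, like the chymases, are close copies, and the labels do not say how the authors' counting split reads between copies. Srgn, the proteoglycan core that carries heparin, was not restricted to mast cells, with 689 and 484 UMIs and ratios of 1.64 and 1.60.

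The chymases of mucosal mast cells were not detected, although 5 of the 8 listed genes of mucosal mast cells had UMIs. Of the 8, 2 had enough UMIs for the comparison and 0 were at least 4-fold higher. Mcpt1 and Mcpt2 had 0 UMIs in the mast cells of both libraries and in other leukocytes, and Mcpt9 likewise; a count of 0 allows up to 3. Gzma and Gzmb, cytotoxic granzymes, were also at 0 in mast cells, with 3234 and 2511 UMIs of Gzma in other leukocytes. Of the basophil protease Mcpt8, 2 and 0 UMIs were found. Of the 17 listed granule genes 12 had any UMI, 8 had enough for the comparison, and 7 were at least 4-fold higher, 4 of these being selecting genes.

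Enzymes of heparan and heparin sulfation and their helpers were also among the higher genes; these were picked out after their values were seen, apart from Ndst2, which was on a list. Hs6st2, a 6-O-sulfotransferase, had 411 and 315 UMIs in 34 and 34 mast cells and 41 and 21 in other leukocytes, ratios of 10.22 and 11.08. Hs3st3a1, a 3-O-sulfotransferase, had ratios of 5.94 and 5.89, and Papss2, which makes the sulfate donor, 5.12 and 4.62. Ndst2, the N-deacetylase and N-sulfotransferase known to be needed for heparin in mast cells, had 75 and 54 UMIs and ratios of 4.18 and 4.46. Hs2st1 (2.91 and 2.23) and the chain elongating enzyme Ext1 (2.63 and 2.94) stood closer to other leukocytes.

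Of the IgE receptor's chains, the ligand-binding α chain Fcer1a had 331 and 167 UMIs in 31 and 30 mast cells, against 12 and 10 in other leukocytes. The β chain Ms4a2 had 96 and 77 UMIs in 26 and 25 mast cells, ratios of 10.15 and 9.73. Fcer1g, the γ chain shared with other Fc receptors, had 349 and 293 UMIs but ratios of only 0.70 and 1.55. Downstream of the receptor, the adaptor Lat2 (3.98 and 3.94) and the kinase Prkcb (2.34 and 2.02) were higher, whereas the kinases Lyn (-0.14 and -0.22) and Syk (-1.34 and -1.63) were not. Of 21 listed genes 12 had enough UMIs and 4 were at least 4-fold higher.

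Among surface receptors, the Mas-related receptor Mrgprb1 had 543 and 349 UMIs in 36 and 32 mast cells, against 3 and 4 in other leukocytes, log2 ratios of 14.39 (12.83 to 16.67) and 13.62 (12.25 to 15.50). Mrgprb2, the receptor that answers basic peptides and drugs in mice, had 145 and 76 UMIs in 32 and 27 cells. Mrgprx2 had 189 and 111 UMIs in 31 and 28 cells. The Mrgpr genes form a cluster of close copies, so the split of reads between them is uncertain. Kit had 405 and 361 UMIs (ratios 7.96 and 8.40) and Il1rl1, the receptor of the alarmin IL-33, 454 and 276 (5.84 and 5.91). The adenosine receptor Adora3 (6.71 and 8.00), the ATP channel P2rx1 (5.81 and 4.98) and the CD200 receptor relative Cd200r3 (8.49 and 7.89) were higher as well. Mrgpra4, Cysltr2, Tacr1 and Il9r had 0 or 1 UMI in the mast cells of each library.

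Genes of amine and lipid mediators followed. Hdc, which makes histamine, had 835 and 899 UMIs in 36 and 35 mast cells, ratios of 6.22 and 6.79. Tph1, the first enzyme of serotonin synthesis, had 64 and 118 UMIs in 26 and 32 cells against 10 and 3 in other leukocytes. Slc18a2, the vesicular amine transporter, had 176 and 110 UMIs, and Slc6a4, the serotonin transporter, 180 and 131. Maob, an amine oxidase, had ratios of 6.42 and 7.03, and Cyp11a1, the side-chain cleavage enzyme of steroid synthesis, 7.13 and 9.90. Hpgds, which makes prostaglandin D2, had ratios of 1.97 and 2.32 and missed the 4-fold limit in the Cept1 library. Ptgs2 and Hnmt were at 0. Of 18 listed genes 7 had enough UMIs and 5 were at least 4-fold higher.

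Transcription factors of the lineage were found at modest counts. Gata2 had 177 and 129 UMIs in 31 and 30 mast cells (ratios 6.84 and 7.15), Mitf 209 and 111 (2.26 and 2.42), Tal1 41 and 26 (4.33 and 4.20) and Meis2 193 and 177 (4.47 and 4.58). Gata1 had 9 and 5 UMIs, too few for the comparison. Spi1, the myeloid factor, had ratios of -1.93 and -1.59 on 12 and 9 UMIs. Maf, known from macrophages, was at least 4-fold lower (-2.53 and -2.28). The other lower genes were Lyz2, the lysozyme of phagocytes (-3.81 and -3.25), and the chemokine Pf4 (-3.23 and -2.76).

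Of cytokines, Il4 had 36 and 26 UMIs in 19 and 17 mast cells, ratios of 6.93 and 6.96, and was the 1 gene at least 4-fold higher among the 4 with enough UMIs. Il13 had 4 and 12 UMIs, and Il5, Il10 and Areg had 0. Ccl2, a monocyte chemokine, was found in 35 and 33 mast cells with 374 and 321 UMIs, while other leukocytes had 17363 and 13668, ratios of 1.35 and 1.76. Of exocytosis genes, the granule GTPase Rab27b (5.31 and 6.10) and the syntaxin Stx3 (3.96 and 3.83) were higher, 2 of the 5 with enough UMIs.

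No difference in the targeted gene was detectable in mast cells at this depth. Cept1 had 12 UMIs in 10 of 36 mast cells and 10 UMIs in 8 of 38, 54.3 and 53.5 CPM, a log2 ratio of 0.02 (-1.32 to 1.39). In cells with UMIs of both endothelial genes Cdh5 and Pecam1 (1775 and 922 cells) it was 107 and 70.7 CPM, a ratio of 0.60 (0.47 to 0.72), and in the other filtered cells 65.8 and 54.2 CPM (0.28, 0.22 to 0.34). The interval in mast cells includes both of those ratios.

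Between the libraries, the proteases Mcpt4, Cma1, Cpa3 and Tpsb2 and the receptors Kit, Fcer1a, Mrgprb1, Mrgprb2 and Mrgprx2 were within 2-fold, and intervals of several left out 0. Of 1718 genes with at least 40 UMIs over both libraries, 68 (3.96%) were at least 2-fold higher and 87 (5.06%) at least 2-fold lower in the Cept1 library with a counting interval that left out 0; such genes are referred to below as called. Among the cells with under 0.5% other-cell markers 43 of 1177 genes (3.65%) were called higher and 57 (4.84%) lower, and 65 genes were called in both sets. Without the cell holding most of a gene's UMIs the counts were 31 and 47 of 1476. That cell was taken out of 1 library only. Where it came from the library with the higher level, a shift of the ratio toward 0 is partly built in. The median log2 ratio over 3455 genes with at least 20 UMIs was 0.04, with 1840 ratios above 0 and 1615 below. Among the cells with under 0.5% other-cell markers 1260 of 2460 genes were above 0 and 1200 below. The counts of list members above and below 0 that follow stand beside these shares over all genes.

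**Figure D3:**
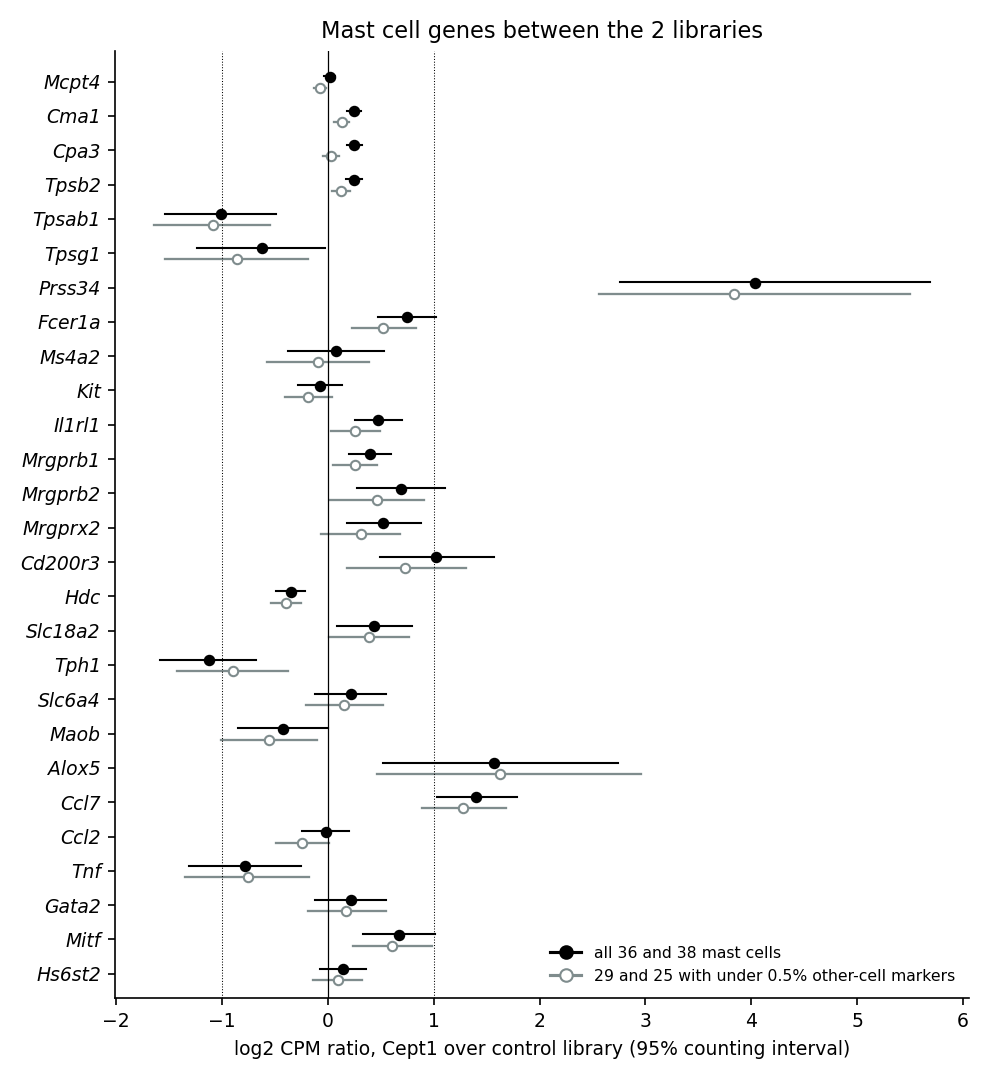
Log2 CPM ratio of the Cept1 over the control library in mast cells for 27 genes named in the text, with exact 95% intervals of the split of their UMIs. Black points use all mast cells and open grey points those with under 0.5% other-cell markers; Prss34 stands far to the right, and Mcpt4, Cma1, Cpa3, Tpsb2 and Kit lie within 0.26 of 0 in all mast cells.

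Mcpt4 had 303 UMIs per 10000 UMIs in the median control cell and 307 in the median Cept1 cell, and a log2 ratio of 0.02 (-0.04 to 0.07). Cma1, Cpa3 and Tpsb2 each had a ratio of 0.25, with intervals of 0.18 to 0.31, 0.18 to 0.32 and 0.17 to 0.32. In the cells with few other-cell markers the ratios were 0.13, 0.03 and 0.12. The other-cell UMIs of the control cells also enter the total that each level is divided by.

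Prss34, a serine protease known mainly from basophils, had the highest ratio of the named genes. It had 97 UMIs in 10 mast cells of the Cept1 library (0 to 34 per cell, median 0) and 5 UMIs in 2 of the control library (0 to 3, median 0), a log2 ratio of 4.04 (2.76 to 5.69). The ranges overlapped, since most cells of both libraries had no UMI, and 3 cells held 75.3% of the 97 UMIs. Without the cell with most UMIs the ratio was 3.49, and in the cells with few other-cell markers 3.84. Thinned to 2000 UMIs, 6 of 28 cells (21.4%) and 2 of 28 (7.14%) had a UMI, with overlapping intervals of 8.30 to 41.0% and 0.877 to 23.5%; unthinned, the shares were 27.8% and 5.26%. Thinning left out 8 and 10 shallower cells. Other leukocytes had 1 UMI in each library. The 7 basophil markers, Prss34 itself among them, summed to 0 to 35 UMIs per cell (median 4.5, 6 genes found) in the Cept1 library. In the control library they summed to 0 to 8 (median 1, 5 found), with Gzmb at 0 in both and Mcpt8 at 2 and 0 UMIs. Of their 244 and 74 UMIs, Prss34 gave 97 and 5 and Cd200r3 103 and 43, so the sums largely repeat those counts. The part of these markers in the result was not tested.

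Tpsab1 had 0 to 7 UMIs per cell in the Cept1 library and 0 to 36 in the control library, a log2 ratio of -1.01 (-1.54 to -0.49), but 36 of the 85 control UMIs were in 1 cell and the ratio without it was -0.29. Tpsg1 had a ratio of -0.62 (-1.23 to -0.02) and was not called. Cma2 had 9 and 20 UMIs, below the minimum. Of 11 granule genes with at least 20 UMIs, 8 had ratios above 0 and 3 below, 1 was called higher (Prss34) and 1 lower (Tpsab1). The list's median was 0.25, and 0.09 in the cells with few other-cell markers.

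**Figure D4:**
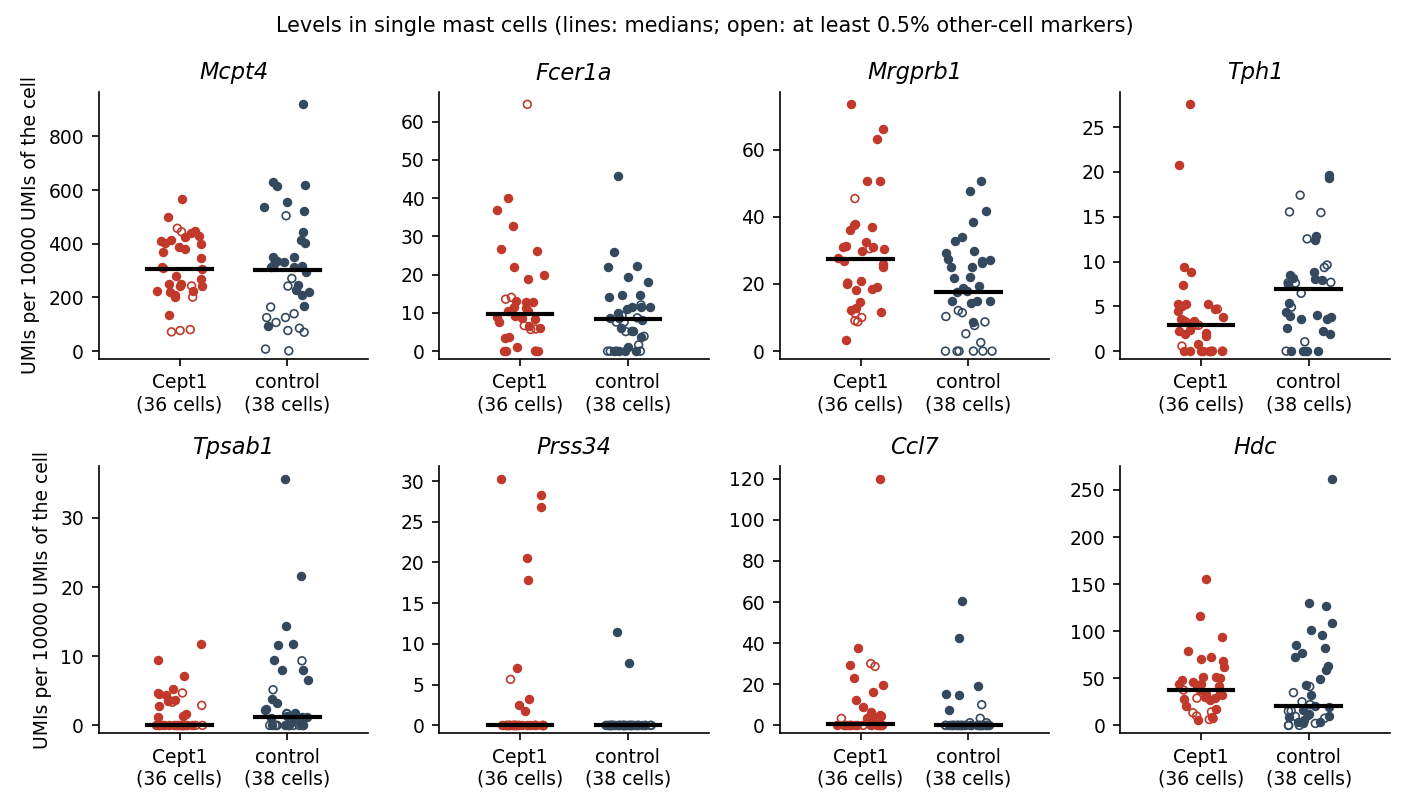
UMIs per 10000 UMIs of the cell for 8 genes in each mast cell of the Cept1 library (red, 36 cells) and the control library (dark blue, 38 cells), with the median as a line and open points for cells with at least 0.5% other-cell markers. The ranges overlap for every gene shown, and Prss34 and Ccl7 rest on few cells. The median of Tph1 over all cells is higher in the control library, and without the open points the medians are 3.24 (Cept1) and 4.02 (control).

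Tph1 was lower in the Cept1 library. Its level was 0 to 27.5 UMIs per 10000 (median 2.90) in the Cept1 cells and 0 to 19.6 (median 6.96) in the control cells. In the cells with few other-cell markers the medians were closer, at 3.24 and 4.02. The ranges overlapped, and the log2 ratio was -1.13 (-1.59 to -0.67). It was -0.90 in the cells with few other-cell markers, short of 2-fold, and -1.04 without the top cell. Thinned to 2000 UMIs, 15 of 28 and 21 of 28 cells had a UMI, with intervals of 33.9 to 72.5% and 55.1 to 89.3%, and unthinned 72.2% and 84.2% had one. Hdc had a ratio of -0.35 (-0.49 to -0.21), with 212 of its 899 control UMIs in 1 cell, and Maob one of -0.42 (-0.85 to 0.00). Slc18a2 had 0.44 (0.08 to 0.79) and Slc6a4 0.22 (-0.12 to 0.55). Alox5, the 5-lipoxygenase that starts leukotriene synthesis, was called higher with 35 UMIs in 19 cells against 10 in 8, a ratio of 1.56 (0.52 to 2.74). The 9 measured genes of this list had a median of -0.13, with 4 above 0 and 5 below.

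For the IgE receptor, Fcer1a had 0 to 56 UMIs per cell (median 4.5) in the Cept1 library and 0 to 16 (median 3) in the control library, a log2 ratio of 0.74 (0.47 to 1.02) that stayed under 2-fold. Ms4a2 had 0.08 (-0.37 to 0.53) and Fcer1g 0.01 (-0.22 to 0.24). Of 18 measured genes of the list 14 had ratios above 0, none was called in either direction in all mast cells, and the median was 0.20, or 0.14 in the cells with few other-cell markers. In those cells 1 was called higher, Stim1, the calcium sensor of store-operated entry, with 44 and 18 UMIs (1.00, 0.18 to 1.88).

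Kit had a log2 ratio of -0.08 (-0.28 to 0.13) and Il1rl1 one of 0.48 (0.26 to 0.70). Jak2, a kinase of cytokine receptors, was called lower on 14 and 26 UMIs (-1.14, -2.19 to -0.15), and had -0.78 without its top cell. The receptors Mrgprb1, Mrgprb2 and Mrgprx2 had ratios of 0.40 (0.20 to 0.59), 0.69 (0.28 to 1.11) and 0.53 (0.18 to 0.88), none 2-fold. All 3 shrank to 0.25, 0.46 and 0.31 in the cells with few other-cell markers. Of 10 measured surface receptors 9 were above 0 with a median of 0.28, against 1840 of 3455 over all genes. In those cells 5 of 10 were above 0, with a median of 0.02. Cd200r3, known as an activating receptor of mast cells and basophils, was called higher with 103 UMIs in 27 cells against 43 in 19 (1.02, 0.49 to 1.57), and lost the call in those cells at 0.73.

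Ccl7, a monocyte chemokine, had 244 UMIs in 18 cells (0 to 103 per cell, median 0.5) in the Cept1 library and 78 in 10 cells (0 to 38, median 0) in the control library. Its log2 ratio was 1.40 (1.03 to 1.79), but 0.67 (0.26 to 1.09) without its top cell. Under a stricter cell filter (1000 genes or more, mitochondrial UMIs of 5% or less) the ratio was -0.064, on 56 and 69 UMIs. Ccl7 was also abundant outside mast cells, in 40.8% and 19.9% of other leukocytes. Cxcl2 was called lower on 6 and 78 UMIs (-3.94), with 25, 24 and 15 of the control UMIs in 3 cells that had at least 0.5% other-cell markers. Without such cells it had 2 UMIs in each library (-0.29), too few to read a ratio. Tgfb1 was called lower (12 and 30 UMIs, -1.56, -2.67 to -0.56). Tnf had -0.78 (-1.31 to -0.26) and Ccl2 -0.02 (-0.24 to 0.20). The 9 measured genes of the list had a median of -0.32.

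Further genes called higher in the Cept1 library had modest counts. Ksr2, a scaffold of the Ras and MAP kinase pathway, had 48 UMIs in 14 cells against 6 in 5 (2.76, 1.53 to 4.27; 2.42 without its top cell). Dusp6, a phosphatase of ERK, had 36 UMIs in 22 cells against 10 in 9 (1.61, 0.57 to 2.78). Under the stricter cell filter its ratio was only 0.37, on 11 and 10 UMIs, with an interval that held 0. Sgk1, a kinase induced by serum and glucocorticoid, had 66 in 22 cells against 21 in 15 (1.41, 0.68 to 2.19). Tnfrsf21, a death receptor, had 44 against 14 (1.41, 0.51 to 2.39), and Rbfox1, a splicing factor, 65 against 19 (1.53, 0.78 to 2.35). Spata5 had 32 against 9 (1.59, 0.49 to 2.84). Cdh9 (1.63) and Zmat4 (1.58) lost their calls without the top cell, at 0.77 and 1.02, the first falling under 2-fold and both with intervals that then held 0. Chst11, a chondroitin sulfotransferase picked after its value was seen, was called higher with 73 and 30 UMIs (1.04, 0.41 to 1.70), and had 0.81 without its top cell.

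The following genes were lower in the Cept1 library and had log2 ratios of -1.44 or lower without their top cell. Ell2, a transcription elongation factor, had 36 UMIs in 13 cells against 147 in 28 of the control library (-2.27, -2.84 to -1.74). Homer1, a scaffold protein induced by activity, had 58 in 15 cells against 196 in 17 (-2.00, -2.45 to -1.57). Mylip, a ubiquitin ligase of the LDL receptor, had 26 in 20 cells against 83 in 19 (-1.92, -2.61 to -1.27). Ier3 had 27 against 88 (-1.95, -2.63 to -1.31), Ier5 7 against 37 (-2.64, -4.05 to -1.46) and Gadd45b, a stress response gene, 15 against 60 (-2.24, -3.17 to -1.41). Ints6 of the Integrator complex (-1.65), Tbl1x of the NCoR complex (-1.83) and the splicing protein Isy1 (-2.70) were lower as well. Ell2, Homer1, Mylip, Ier3, Ints6 and Isy1 were also called in the cells with few other-cell markers, whereas Ier5, Gadd45b and Tbl1x had under 40 UMIs there and could not be called, with ratios of -3.22, -1.82 and -2.13.

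A further 2 lower genes, Lars2 and Gphn, stood closer to 0 without 1 cell. Lars2, a mitochondrial leucyl-tRNA synthetase, had 13 UMIs against 126 (-3.52), and -1.31 without its top cell. In the mast cells with at least 10 Cpa3 UMIs it had 13 against 18 (-0.85, -2.00 to 0.26). Gphn, the synaptic scaffold gephyrin, had 39 against 193 (-2.55), -0.67 without its top cell and -0.39 in the cells with few other-cell markers.

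Immediate early genes, known to respond to tissue digestion, did not move one way. Fos had 1700 and 1357 UMIs (0.08, -0.02 to 0.19), Jun 1355 and 1121 (0.03, -0.08 to 0.15) and Egr1 1455 and 970 (0.34, 0.22 to 0.46). Junb (-0.62), Jund (-0.51), Dusp1 (-0.52) and Nr4a1 (-0.70) were below 0 with intervals that left it out, all under 2-fold. Nr4a2 was called higher (64 UMIs in 8 cells against 25 in 6, 1.11) but had 0.21 without its top cell. Fosl2 (24 and 57, -1.49) and Ier3 were called lower. Of 20 measured genes 10 were above 0 and 10 below, with a median of -0.11. Interferon-stimulated genes had 4 measured members, with Ifitm3 called higher (83 and 26 UMIs, 1.43) and Bst2 lower (18 and 43, -1.50). Without the top cell these were 0.90 and 0.21, so neither call remained and the sign of Bst2 turned.

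Transcription factors had a median of 0.17 over 17 measured genes, with Runx1 called higher (72 and 30 UMIs, 1.02, 0.39 to 1.69) but at 0.95 in the cells with few other-cell markers and 0.78 without its top cell. Gata2 had 0.21 (-0.12 to 0.55) and Mitf 0.67 (0.33 to 1.02). Among adhesion genes, Cadm1, through which mast cells are known to attach to neighbouring cells, was called higher with 180 UMIs in 32 cells against 68 in 13 (1.16, 0.75 to 1.59), and had 0.89 in the cells with few other-cell markers. The 12 measured lysosome and matrix genes had a median of 0.06 and no call, and the 9 measured exocytosis genes one of 0.14 and no call.

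**Figure D5:**
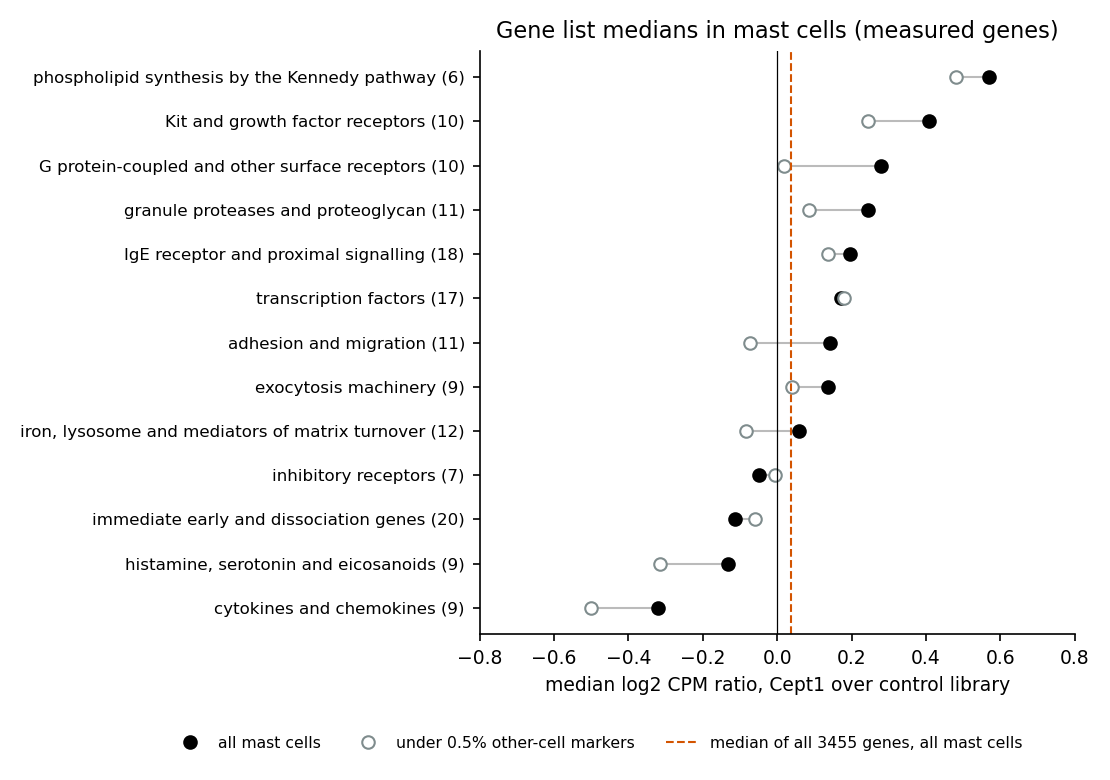
Median log2 CPM ratio of the Cept1 over the control library in mast cells for the 13 lists with at least 5 measured genes (number measured in parentheses), in all mast cells (black) and those with under 0.5% other-cell markers (open grey); the dashed line is the median of all 3455 genes. Medians run from -0.32 for cytokines to 0.57 for phospholipid synthesis, and 10 of the 13 are lower in the smaller set.

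Of 20 genes of phospholipid synthesis, 6 had at least 20 UMIs in mast cells, 5 with ratios above 0 and a median of 0.57 (0.48 over 5 genes in the cells with few other-cell markers). Etnk1, the ethanolamine kinase that starts the ethanolamine branch, was called higher with 52 UMIs in 22 cells against 16 in 10 (1.46, 0.63 to 2.37; 1.30 in those cells). Chpt1, a cholinephosphotransferase and relative of Cept1, had 67 and 38 UMIs (0.58, -0.02 to 1.19) and was at least 4-fold higher in mast cells than in other leukocytes (3.21 and 2.79). Chka, the choline kinase, had 58 and 57 UMIs (-0.22, -0.77 to 0.34), and Pcyt1a, the rate-limiting step of the choline branch, 24 and 8.

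Vegfa had 21 and 13 UMIs in 10 and 10 mast cells (0.45, -0.62 to 1.57). Ppara was at 0 in both. The antisense transcript of the Rosa26 locus, Gt(ROSA)26Sor, had 0 UMIs in mast cells of the Cept1 library and 30 in 17 control mast cells, at least 11.8-fold lower against a floor of 3 counts per library. The same direction held outside mast cells: other leukocytes had 208 and 888 UMIs, 6.27% and 22.9% of cells with one. Both groups are labelled Cept1fl/fl, and the labels do not say whether the Rosa26 locus carries the transgene in either, so what the difference reflects cannot be told. Without known strand counting an antisense gene and its partner cannot be told apart.

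Protease levels per UMI were related from cell to cell for some pairs and not for others. Over the cells with few other-cell markers, Spearman's rho was 0.28 (29 cells) and 0.70 (25 cells) for Cpa3 with Mcpt4, 0.47 and 0.71 for Cpa3 with Cma1, and 0.43 and 0.42 for Mcpt4 with Tpsb2. It was 0.15 and 0.65 for Mcpt4 with Cma1, 0.21 and 0.51 for Cpa3 with Tpsb2, and -0.018 and 0.29 for Cma1 with Tpsb2. Kit with Cpa3 had 0.18 and 0.08. The values share each cell's total and its depth, the sets are small, and the difference between the libraries was not tested.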

How the data were processed

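For each gene and cell the authors deposited an unnormalized UMI count. Cell Ranger 7.2.0 wrote the matrices, per the file headers. Cell Ranger, Seurat and mm10 appear in the submitters' processing notes. Annotation, intronic reads and strand use are not given there. Of 32285 features, 99.8% were found in GENCODE vM21. The mast cells and the gene lists were chosen with earlier results of these data known.

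Counts were summed over cells and divided by their total (CPM; Python 3.11.15, scipy 1.17.1). The UMIs of a gene were split between the 2 sides of a ratio, and the exact 95% Clopper-Pearson interval of that split was carried over to the ratio. Cells are not replicates, so no p-value is given. Ratio recovery was tested on simulated sums that held counting error only, without differences between cells. It cannot show how the intervals behave for genes with most UMIs in few cells. Named genes were the 6 selecting genes; the 25 highest over other leukocytes by the lower of both libraries; the 12 highest and 12 lowest called ratios between libraries, in at least 5 mast cells and not below the other filtered cells; and list members, of which some are not reported here. Not eligible for the ranked sets were genes of haemoglobin, ribosomal proteins, antigen receptors and mitochondria, and unnamed gene models. Doublets were scored with Scrublet (scanpy 1.11.5, expected rate 8%) at the Cept1 library's automatic threshold of 0.247, since the control library's own, 0.709, called 0 cells. Scaling alternatives used edgeR 4.0.16 and DESeq2 1.42.0 factors.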

Additional observations from a re-analysis of the deposited data

How the results depend on the processing

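No paired analysis was possible because each group had 1 library, and no library could be left out. Of the alternatives tried, 48 of 59 values of shares, counts and list medians stayed within their limits. The control share was 0.599% with no cell filter and 0.286% in the cells with few other-cell markers, both chosen after the data were seen. Leaving out cells with at least 2 stromal or endothelial markers left 75 of 315 genes at least 4-fold higher than in other leukocytes. Genes called higher and lower between libraries numbered 10 and 20 of 403 (2.48% and 4.96%) with cells thinned to 2000 UMIs, 152 and 189 of 3455 at a minimum of 20 UMIs, 31 and 47 of 1476 without each gene's top cell, and 43 and 57 of 1177 in the cells with few other-cell markers. For single genes, of which 49 were recomputed between libraries (Bst2, Ifitm3 and Nr4a2 not among them), 788 values stayed, 100 moved and 2 reversed. Many of the 788 could not move. No mast cell was scored a doublet, so all 49 ratios between libraries stayed with doublets left out. Settings that changed only a call limit, such as the minimum of 20 UMIs, also left every ratio as it was. Thinned to 2000 UMIs, 19 of the 49 moved, 1 reversed and 29 stayed. The reversals were Ccl7 to -0.064 under the stricter cell filter (1000 genes or more, mitochondrial UMIs of 5% or less), and Gphn to 0.33 on 13 and 10 UMIs when thinned. Between libraries a reversal was counted only for genes called in all mast cells, so sign changes of other genes are among the values that stayed or moved. With at least 10 Cpa3 UMIs, Mcpt4 went from 0.02 to -0.10 (-0.15 to -0.05) and Ms4a2 from 0.08 to -0.03 (-0.48 to 0.43). TMM and median-of-ratios scaling moved no named gene beyond its limit. The causes were not tested. At this depth 3455 genes had at least 20 UMIs in mast cells, 1718 of them the 40 needed for a call.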
